A study of Homo sapiens with 3 samples.

Results

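GRB7, STARD3, MIEN1, TCAP, IKZF3 and NEUROD2 are neighbours of ERBB2, the gene of HER2, on 17q12, and their signals were examined in untreated BTSH cells. They are 6 of the 14884 genes that an annotation of the HuGene 2.0 ST array names, were taken by their symbol, and each is represented by 1 feature. They were picked with their signals known, 3 for a high and 3 for a low signal, so the contrast between them is described and not tested. BTSH is a single clone, picked from the HER2+ breast cancer cell line BT474 and more sensitive to trastuzumab, the antibody against HER2. RNA of 3 BTSH cultures, described as biological replicates, was hybridized to 1 array each. No other cell line was analysed here, no copy number was measured, and ERBB2 itself has no named feature, so the extent of the amplified stretch in BTSH cells is not known from these data.

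HER2+ breast cancers carry extra copies of a piece of chromosome 17 around ERBB2. Genes on that piece are copied along with ERBB2 whether or not the cell type uses them, and a transcript appears only where the promoter of the gene is active in that cell. GRB7, STARD3 and MIEN1 are well known to be overexpressed together with HER2 in breast tumors. TCAP, IKZF3 and NEUROD2 are best known from striated muscle, lymphocytes and neurons.

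The authors normalized the arrays by RMA, and all signals and their differences are given on the log2 scale. Background was estimated from 106 features of genes that breast epithelium is not known to use, which encode vomeronasal receptors and proteins of hair and of the cornified envelope of the skin. A gene counted as above background where every array placed it over the 95th percentile of those features. This threshold was 6.70, 7.08 and 6.83 in replicates 1, 2 and 3, whereas the median of all features was 4.40, 4.42 and 4.43. The median of the background features themselves was 3.66, 3.81 and 3.71. Below background therefore means under this threshold, and does not show that a gene is silent. The distance of a signal from the threshold of its own array is called its margin. Signals of different genes also depend on their probes, so a margin describes a feature and does not rank the transcripts of different genes.

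GRB7, STARD3 and MIEN1 were above background in each of the 3 BTSH cultures, and NEUROD2, TCAP and IKZF3 were below the threshold in each. NEUROD2 and TCAP were still over the median of the background features and over that of all features in every array. The feature named for IKZF3 was also over the median of the background features in every array. It was over that of all features in replicate 3 alone. As a reference, 30.4% of the named genes passed in all 3 arrays and 63.3% passed in none. With the 99th percentile as background, 22.0% passed and the calls of the 6 genes were the same. Among named protein-coding genes 36.5% passed, and among those of chromosome 17 43.8%. Because the members were selected on these signals, their own split of 3 and 3 carries no information beyond the selection.

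STARD3 encodes a protein of late endosomes that binds cholesterol and moves it between membranes. Its signal was 11.25, 11.43 and 11.34 in replicates 1, 2 and 3, which is 11.34 ± 0.09 (SD, n = 3). All 3 arrays were far from the threshold, with margins of 4.55, 4.35 and 4.51.

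MIEN1 encodes a small lipid-anchored protein that promotes cell migration and invasion. Its signal was 11.35, 11.46 and 11.60 (11.47 ± 0.12, SD, n = 3), with margins of 4.65, 4.39 and 4.77. Replicate 3 was the highest culture for MIEN1, and the SD was 0.08 without it. The highest and lowest cultures were 1.19-fold apart.

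GRB7 encodes an adaptor protein whose SH2 domain binds phosphorylated receptors, HER2 among them. Its signal was 10.59, 10.82 and 10.89 (10.76 ± 0.16, SD, n = 3), with margins of 3.89, 3.74 and 4.06. Replicate 1 lay apart below the other cultures, and the SD was 0.05 without it.

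NEUROD2 encodes a basic helix-loop-helix transcription factor of neurons. Its signal was 4.91, 5.16 and 5.09 (5.05 ± 0.13, SD, n = 3), and its margins were -1.79, -1.92 and -1.74. No array came near the threshold. Replicate 1 was the lowest culture, and the SD was 0.05 without it.

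TCAP encodes telethonin, which links titin molecules at the Z-disc of striated muscle. Its signal was 5.61, 5.81 and 5.71 (5.71 ± 0.10, SD, n = 3), with margins of -1.09, -1.27 and -1.12. TCAP was the closest to the threshold of the 3 genes below it, and its call depended on the percentile. With the 90th percentile as background, a level that 50.5% of all named genes passed, TCAP was above it in all 3 arrays with a mean margin of 0.22.

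IKZF3 encodes Aiolos, a zinc finger transcription factor of the Ikaros family that acts in lymphocytes. The signal of the feature named for it was 4.04, 4.03 and 4.58 (4.22 ± 0.31, SD, n = 3), with margins of -2.66, -3.04 and -2.25. Replicates 1 and 2 were nearly equal, with an SD of 0.01 between them, and replicate 3 was higher. Feature identifiers of this array run along chromosome 17 in stretches that follow the strand. In the stretch that holds GRB7, 270 of 272 named features with a strand in RefSeq belong to genes of the plus strand, and in the stretch that holds MIEN1, 183 of 187 belong to genes of the minus strand. IKZF3 is transcribed from the minus strand, but its feature stands in the stretch of GRB7, between GRB7 and ZPBP2. The position of its probes was not examined, and so the low signal of this feature is not taken as the level of the IKZF3 transcript. The features of STARD3, MIEN1 and NEUROD2 stand in the stretch of their own strand in RefSeq.

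**Figure D1:**
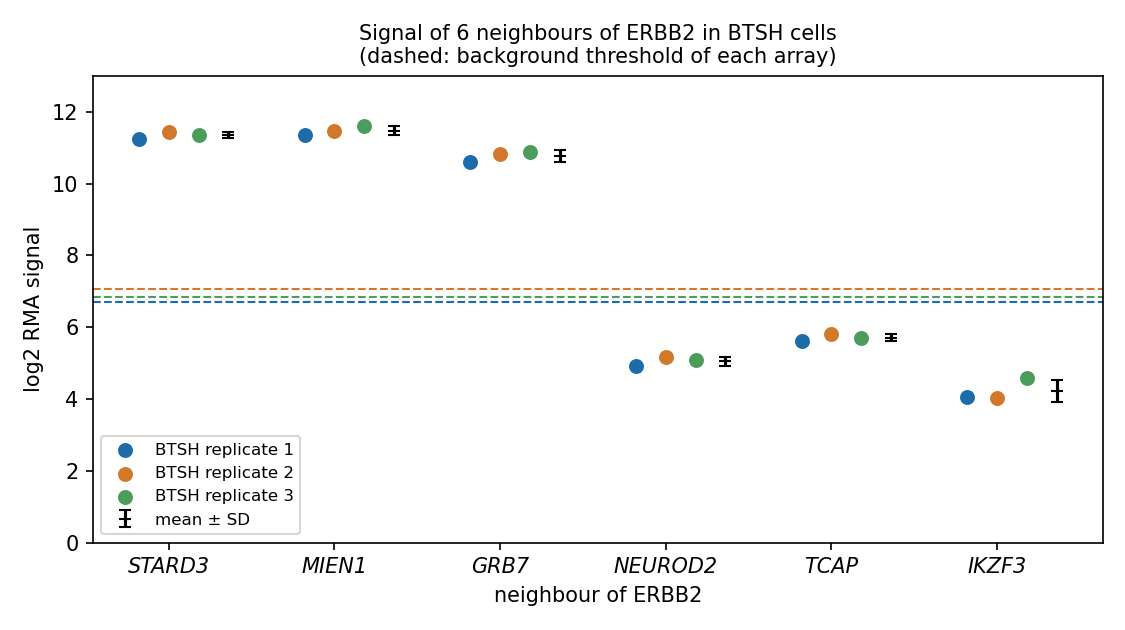
log2 RMA signal (vertical axis) of the 6 neighbours of ERBB2 in BTSH replicates 1, 2 and 3 (points), with mean ± SD over the 3 arrays (bars) and the background threshold of each array (dashed lines, 6.70 to 7.08). STARD3, MIEN1 and GRB7 lie above all lines, and NEUROD2, TCAP and IKZF3 lie below all of them, since the genes were picked for this difference.

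The table of RefSeq promoters used here (GRCh38.p14) holds an entry for 3 of the 6 genes, and the 250 bases before the start site are shown for them so that members above and below background can be compared. STARD3 lies on the plus strand (chr17:39636894-39637143), and MIEN1 (chr17:39730533-39730782) and NEUROD2 (chr17:39607921-39608170) lie on the minus strand. Capitals mark matches, on either strand, to the GC box GGGCGG bound by Sp1, to the ETS motif CCGGAAG and to the TATA box TATAAA, none of which overlap each other here.
STARD3: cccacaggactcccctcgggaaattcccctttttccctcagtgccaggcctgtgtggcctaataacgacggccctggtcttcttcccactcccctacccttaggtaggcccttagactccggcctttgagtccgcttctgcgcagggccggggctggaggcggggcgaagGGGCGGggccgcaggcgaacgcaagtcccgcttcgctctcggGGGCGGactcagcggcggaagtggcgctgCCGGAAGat
MIEN1: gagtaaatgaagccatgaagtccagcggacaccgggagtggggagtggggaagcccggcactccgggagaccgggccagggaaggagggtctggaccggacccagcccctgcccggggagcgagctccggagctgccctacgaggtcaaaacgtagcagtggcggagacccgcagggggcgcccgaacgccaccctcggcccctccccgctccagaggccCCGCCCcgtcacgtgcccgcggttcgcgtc
NEUROD2: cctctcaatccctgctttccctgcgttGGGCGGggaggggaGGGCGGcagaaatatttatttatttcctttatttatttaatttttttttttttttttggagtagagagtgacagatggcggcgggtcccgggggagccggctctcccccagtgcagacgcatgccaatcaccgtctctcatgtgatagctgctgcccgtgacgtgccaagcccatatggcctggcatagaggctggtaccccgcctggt

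STARD3 had 2 GC boxes and 1 ETS motif in this window, MIEN1 had 1 GC box, and NEUROD2 had 2 GC boxes. A GC box was present in 53.7% of 22198 promoter windows of protein-coding genes, an ETS motif in 10.7% and a TATA box in 9.01%. The number of CpG dinucleotides was 21 in STARD3, 25 in MIEN1 and 12 in NEUROD2, where the median of all windows was 16. Among the other genes of the region with an entry, the median was 18 in the 15 genes above background, with a range of 1 to 40, and 17 in the 5 genes below it, with a range of 4 to 33, so the ranges overlapped. ZPBP2, which was below background in all 3 arrays, had 33 CpG dinucleotides, and PCGF2, which was above it, had 1. In the same 15 genes above background, 7 had a GC box, 4 an ETS motif and 2 a TATA box. In the 5 genes below it, 4 had a GC box, 1 an ETS motif and 0 a TATA box. A match to a motif describes the sequence and does not show that a factor binds there.

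A list of 50 genes of 17q12-q21, ordered along the chromosome, puts the 6 members in their surroundings, and 35 of these genes have a named feature. Beside the 6 members, 20 of 29 genes (69.0%) were above background in all 3 arrays and 9 in none, against 30.4% of all named genes and 43.8% of coding genes of chromosome 17 above it. The list was drawn up with earlier results of these data known, so this share describes the list and was not tested. It does not hold every named gene of the region. SPMAP1, MIR4727 and RDM1P5, which also lie there, were below background in all 3 arrays. The median margin of the 29 genes was 1.82, that of all named genes was -1.15 and that of named coding genes was -0.65.

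From NEUROD2 to ORMDL3, 11 genes have a named feature, and 5 of them are not members. PNMT, PGAP3, GSDMB and ORMDL3, 4 of these 5, were above background in all 3 arrays and ZPBP2 was below it. For comparison, 43.8% of named coding genes of chromosome 17 passed, and the difference was not tested. TCAP, below the threshold, lies next to STARD3 on one side and to PNMT on the other, and both of these were above it. PNMT encodes the enzyme that turns noradrenaline into adrenaline in the adrenal gland. Its signal was 8.21, 7.72 and 8.26 (8.06 ± 0.29, SD, n = 3), and in replicate 2 it passed the threshold by 0.65. This was the smallest margin of any gene of the list that passed.

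PGAP3, which remodels the lipid of GPI anchors, is the next gene and had 10.72, 10.87 and 10.82 (10.80 ± 0.08, SD, n = 3). Its margins were 4.02, 3.80 and 3.99, so all 3 arrays lay well above background. On the other side of MIEN1 and GRB7, the order was IKZF3, whose feature may not lie on its strand, and ZPBP2, both below background, and then GSDMB and ORMDL3, both above it.

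ZPBP2 encodes a protein of the sperm head. Its signal was 3.42, 3.33 and 3.70 (3.48 ± 0.20, SD, n = 3), below the threshold by at least 3.13 in every array. GSDMB, a member of the gasdermin family of pore-forming proteins, had 9.40, 9.38 and 9.04 (9.27 ± 0.20, SD, n = 3). ORMDL3, which restrains sphingolipid synthesis in the endoplasmic reticulum, had 11.30, 11.16 and 11.19 (11.22 ± 0.07, SD, n = 3). Each of these 3 genes kept to its side of the threshold in all 3 arrays.

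Further out on the side of NEUROD2, CDK12, a kinase of RNA polymerase II, had a signal of 10.88 ± 0.09, and MED1, a subunit of the Mediator complex, had 12.53 ± 0.08 (SD, n = 3 each). NEUROD2 therefore had genes above background on both sides, CDK12 and STARD3, with PPP1R1B between NEUROD2 and STARD3 not named. LASP1, an actin-binding protein gene, reached 12.24 ± 0.07. FBXO47, a gene of meiotic cells, had 2.59 ± 0.12 and was the farthest below background of the list.

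Beyond ORMDL3, LRRC3C (4.71 ± 0.14), the skin gasdermin GSDMA (5.40 ± 0.07) and CSF3, the gene of the granulocyte growth factor G-CSF (5.36 ± 0.20), were below background in all 3 arrays (SD, n = 3 each). MED24, another Mediator subunit (11.59 ± 0.11), and TOP2A, the topoisomerase of dividing cells (10.22 ± 0.08), were above it. RAPGEFL1 was the gene just outside the threshold, with a margin of -0.03 in replicate 1, -0.69 in replicate 2 and -0.17 in replicate 3. Both it and TNS4 (6.33 ± 0.10) passed with background at the 90th percentile, as did TCAP, and no other gene of the list changed its call there.

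**Figure D2:**
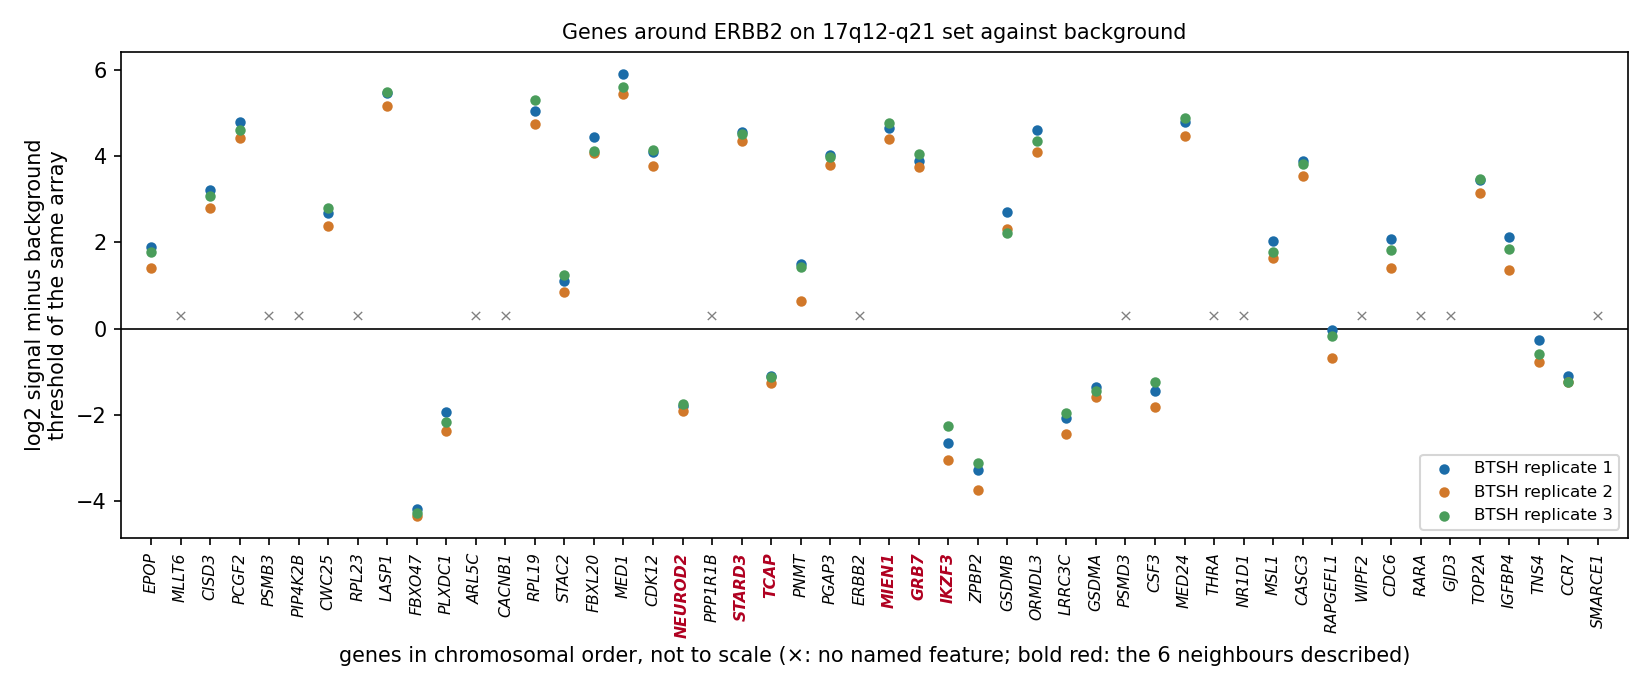
Margin of each listed gene of 17q12-q21 with a named feature, in the 3 BTSH arrays (points). The margin is log2 signal minus the background threshold of the same array (vertical axis). Genes are in chromosomal order and not to scale. The 6 members (bold red) lie among other genes above and below 0, 20 of the other 29 genes lie above 0 in all 3 arrays, and crosses mark genes without a named feature, ERBB2 among them.

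Of 25 named genes that share a tissue or a family with TCAP, IKZF3 or NEUROD2, 0 were above background in any array. Of all named genes, 63.3% passed in none of the arrays. The highest margin of any of the 25 was -0.52. With background at the 90th percentile 2 of the 25 passed, TNNC1 and IKZF4. For 19 further genes of these lists no feature is named.

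The sarcomere list of TCAP had 0 of 9 genes above background and a median margin of -2.34. TTN, the gene of titin, had 4.73, 4.84 and 4.29 in replicates 1, 2 and 3 (4.62 ± 0.29, SD, n = 3), and MYOZ1, a Z-disc protein gene, had 4.53 ± 0.09. TNNC1, which encodes a troponin of slow and cardiac muscle, had the highest mean of the list, 6.18 ± 0.23.

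In the list of IKZF3, 0 of 8 genes were above background, with a median margin of -2.63. The relatives IKZF1 (4.19 ± 0.06), IKZF2 (4.71 ± 0.02) and IKZF4 (5.69 ± 0.06) were below it, and so were PAX5, a factor of B cells (4.25 ± 0.08), and CD2, a surface protein of T cells (4.17 ± 0.09; SD, n = 3 each). MS4A1, CD79A, CD3D, CD3E and PTPRC, which are usual markers of lymphocytes, have no named feature.

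In the list of NEUROD2, 0 of 8 genes were above background, with a median margin of -2.48. NEUROD4 (4.19 ± 0.07) and NEUROD6 (3.51 ± 0.13), the named relatives of NEUROD2, were below it, as was the axonal protein gene GAP43 (5.00 ± 0.01; SD, n = 3 each). The share of all named genes above background was 30.4%, and the tissue lists were chosen for tissues other than breast.

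Lists around the expressed members were mixed. Among the family and the receptor adaptors of GRB7, 3 of 6 genes were above background, with a median margin of 1.03. GRB2 (8.97 ± 0.11), SHC1 (9.03 ± 0.04) and SOS1 (9.40 ± 0.19), which pass signals of HER receptors to RAS, were above it (SD, n = 3 each). GAB1 (6.55 ± 0.17), another adaptor of the list, passed in 0 arrays. The closest relatives of GRB7 did not follow it, since GRB10 (6.84 ± 0.08) passed in 1 array and GRB14 (3.86 ± 0.18) in 0 arrays.

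Of the genes of lipid transfer and late endosomes around STARD3, 6 of 10 were above background, with a median margin of 0.45. VAPB, the protein of the endoplasmic reticulum to which STARD3 tethers endosomes, had 10.86 ± 0.16, and the lysosomal membrane protein genes LAMP1 and LAMP2 had 10.24 ± 0.13 and 9.70 ± 0.09 (SD, n = 3 each). STARD4 (7.16 ± 0.12) and STARD10 (7.48 ± 0.04) also passed, but with lowest margins of 0.17 and 0.44. STARD3NL, the closest relative of STARD3, passed in 1 array (6.64 ± 0.13), as did MOSPD2 (6.53 ± 0.44) and STARD5 (6.78 ± 0.14). STAR, which carries cholesterol into mitochondria of steroid-producing cells, passed in 0 arrays (4.56 ± 0.19).

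Of the list of MIEN1, 2 of 6 genes were above background, with a median margin of -0.63. They were EZR, the gene of ezrin (10.86 ± 0.08), and the focal adhesion kinase gene PTK2 (7.16 ± 0.09). PTK2 only just passed, with a margin of 0.01 in replicate 2. ANXA2, the gene of annexin A2 (6.11 ± 0.12), was below background in all 3 arrays (SD, n = 3 each). Shares of 3 of 6, 6 of 10 and 2 of 6 stand beside 36.5% of all named coding genes, and none of these differences was tested.

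Markers of breast epithelium and of other cell types were also looked at. Of 9 named genes of luminal epithelium, 8 were above background, against 36.5% of all named coding genes, and this was not tested. Among the 8 were EPCAM (10.81 ± 0.04), KRT19 (11.25 ± 0.09) and KRT18 (10.66 ± 0.21), and KRT8 (6.28 ± 0.24) was below background (SD, n = 3 each). How well the KRT8 feature reports its transcript was not tested. The 2 named genes of basal epithelium and the 4 of fibroblasts and endothelium were below background in all 3 arrays, as were 63.3% of all named genes. For 3 further genes of the luminal list, 4 of the basal list and 4 of the fibroblast and endothelium list no feature is named. The arrays measured RNA of whole cultures, in which fewer cells that express a gene and less RNA per cell cannot be told apart.

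**Figure D3:**
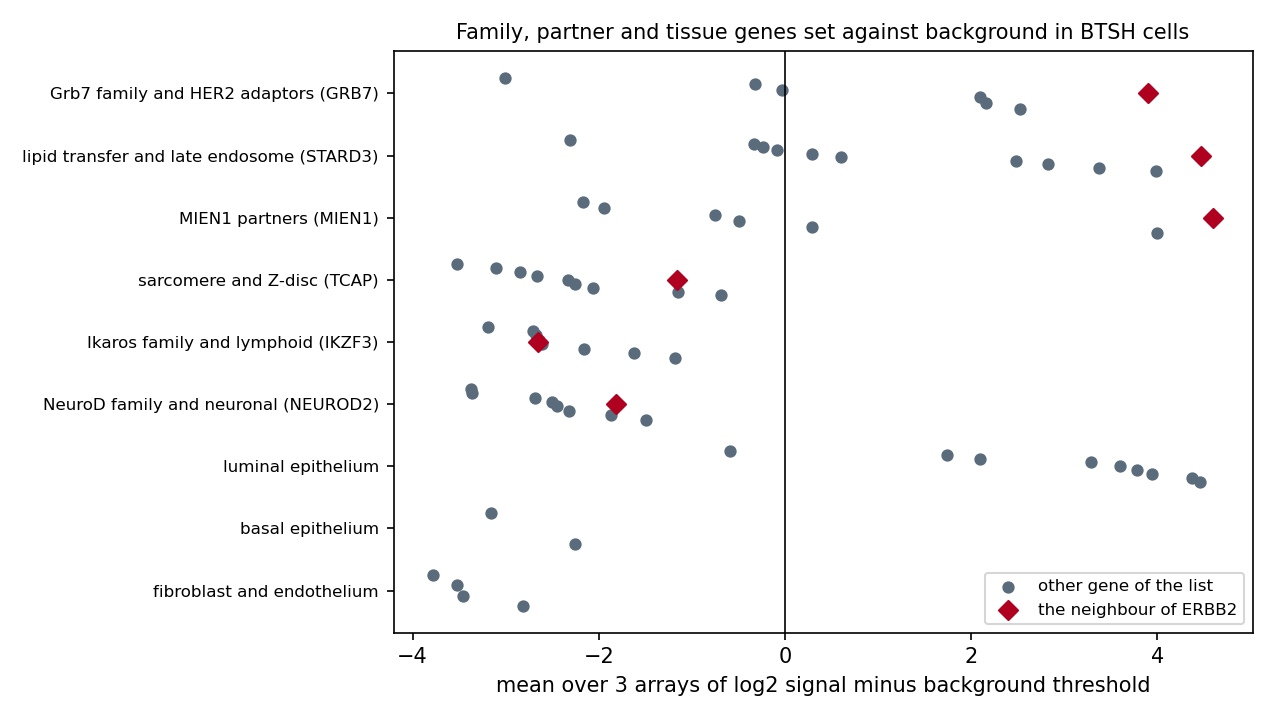
Mean margin over the 3 BTSH arrays (horizontal axis, log2 signal minus background threshold) of the genes of each list (grey points) and of the neighbour of ERBB2 that the list was built around (red diamonds). All points of the sarcomere, lymphoid and neuronal lists lie below 0, with the highest margin in any array at -0.52, and the lists of GRB7, STARD3 and MIEN1 lie on both sides.

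The SD of the 6 members between the 3 cultures lay between 0.09 for STARD3 and 0.31 for IKZF3, where the median SD was 0.11 for genes above background and 0.12 for the others. STARD3 and TCAP (0.10) were under the median of their class, and GRB7, MIEN1, NEUROD2 and IKZF3 were over it. The highest and lowest cultures were 1.13-fold apart for STARD3, 1.23-fold for GRB7 and 1.46-fold for IKZF3. The feature named for IKZF3 stood out, since 95.6% of the genes not above background had a lower SD. Its spread rested on 1 array, and the SD was 0.01 without replicate 3. For GRB7, 72.2% of the genes above background had a lower SD, and for STARD3 36.7%.

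Replicate 1 gave the lowest signal for 5 of the 6 members, the exception being IKZF3, which was lowest in replicate 2. Of all named genes, 33.9% were lowest in replicate 1, and of those above background 26.8%. Of the other 29 named genes on the list of the region, 12 were lowest in replicate 1. Replicate 1 was below the mean of the other 2 cultures by 0.26 for GRB7, 0.18 for MIEN1 and 0.13 for STARD3. With a single group of 3 cultures these differences were not tested.

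GRB7 and MIEN1 were the pair of expressed members that varied most alike, both lowest in replicate 1 and highest in replicate 3. Their deviations from their own means had a root mean square difference of 0.05 over the 3 arrays, against 0.09 for GRB7 and STARD3 and 0.09 for MIEN1 and STARD3. Of the 4527 other genes above background, 196 (4.33%) came within 0.05 of GRB7, 367 (8.11%) of MIEN1 and 402 (8.88%) of STARD3. The closest 3 to GRB7 were NAPRT, ZNF646 and HACL2, with root mean square differences of 0.0043, 0.0055 and 0.0056. KIF20A, CHTOP and STAC2 were the closest to MIEN1 (0.0013, 0.0021 and 0.0023), and STAC2 is itself a gene of the region. SCARNA9, GLMP and TST were the closest to STARD3 (0.00038, 0.0027 and 0.0040). With 3 arrays of the same untreated cells, this likeness describes spread between cultures alone.

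**Figure D4:**
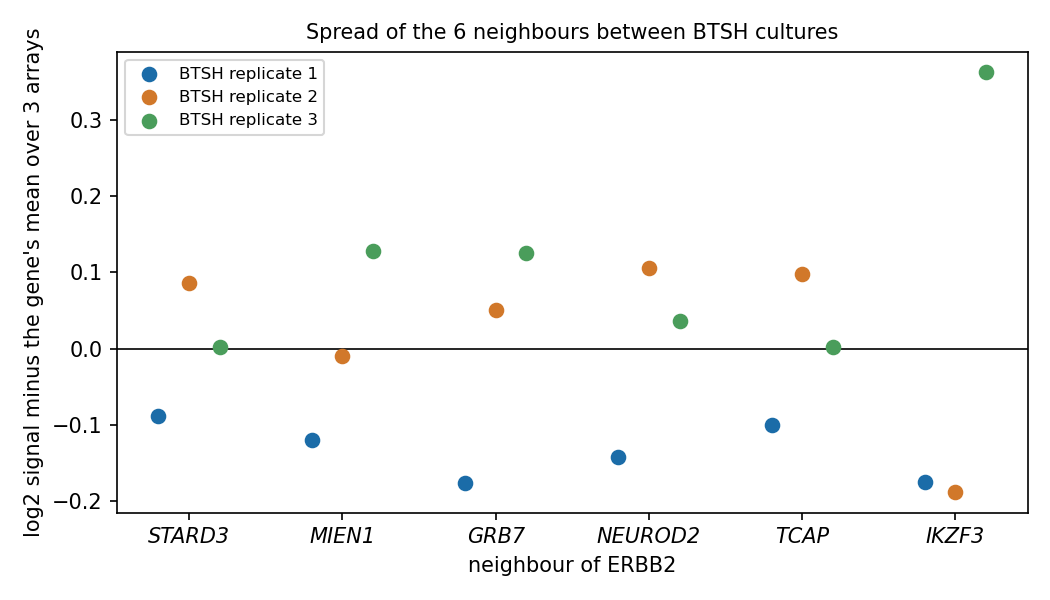
Deviation of the log2 signal in each BTSH array from the mean of the gene over the 3 arrays (vertical axis) for the 6 neighbours of ERBB2. Replicate 1 (blue) is lowest for 5 of the 6 genes, and IKZF3 has the widest spread, with an SD of 0.31, or 0.01 without replicate 3.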

How the data were processed

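RNA of 3 untreated BTSH cultures was measured on HuGene 2.0 ST arrays. The authors normalized the arrays by RMA with Expression Console 1.4 and deposited log2 signals, 53617 per array, and the labels also name Transcriptome Analysis Console 4.0. The genome build behind the features, and whether the arrays were normalized together with others, are not given in the sources used here. As hybridized material, the labels name cRNA and the methods cDNA.

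An annotation of the array names 16098 features, each with 1 symbol, for 14884 genes, and symbols were updated through RefSeq of GRCh38.p14. For 779 genes with more than 1 feature, the feature with the highest mean was used. No test between groups was possible, because there is a single group, and levels are means ± SD over the 3 arrays, whose number limits the precision. The members and gene lists were chosen with earlier results of these data known. The genes named are the members, the named genes from NEUROD2 to ORMDL3 and examples beyond them, examples of each list, and the 3 genes closest to each expressed member in their deviations over the arrays. The chromosomal order was that of RefSeq. The code for the call of background and for likeness was run on simulated data with planted values. That run does not test the choice of background features or calls close to the threshold. No 2 arrays had more than 83 values in common. Alternatives were other percentiles and background features, the mean over arrays or features, quantile normalization, median centring and leaving out 1 replicate at a time. Python 3.11.15 was used with numpy 2.4.6, pandas 2.3.3 and matplotlib 3.10.9.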

Additional observations from a re-analysis of the deposited data

How the results depend on the processing

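The split of the 6 members into 3 above and 3 below background held under every alternative except the 90th percentile, where TCAP passed with a mean margin of 0.22 and 4 members were above. The 23 listed genes of the region above background stayed the same under the 99th percentile, the 75th percentile of all named features and the mean over the arrays. They were also the same under the mean of the features, quantile normalization, median centring and without each replicate. At the 90th percentile, 3 more listed genes passed. The tissue genes above background numbered 2 at the 90th percentile and 0 otherwise. Of the 106 background features, 29 belong to genes of chromosome 17, and leaving them out, an alternative chosen after seeing the data, changed 0 of these calls. Mean margins ranged over the alternatives from 3.33 to 5.27 for GRB7, from 3.91 to 5.85 for STARD3, from 4.04 to 5.98 for MIEN1, from -2.38 to -0.44 for NEUROD2 and from -3.22 to -1.27 for IKZF3. Background at the 90th percentile lies lower, at 5.33, 5.54 and 5.61 in replicates 1, 2 and 3, and so admits more genes. The SD of MIEN1 was 0.08 with quantile normalization. No paired analysis was possible because all samples belong to the same group.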

Other observations

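RPL19, a ribosomal protein gene of the region on the plus strand, has a feature in the stretch of its own strand (11.90 ± 0.22, SD, n = 3) and another in the stretch of the minus strand (9.15 ± 0.28), and both were above background in all 3 arrays. Among the genes of the region it is the only one with 2 named features. SPMAP1 (4.89 ± 0.21), the microRNA gene MIR4727 (2.94 ± 0.14) and the pseudogene RDM1P5 (5.88 ± 0.10), which lie in the same region and were looked up after the values were seen, were below background in all 3 arrays (SD, n = 3 each).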
